A study of Mus musculus with 6 samples.

Results

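Cholesterol is built in the cell from acetyl-CoA, and the 27 genes described here cover that route and the machinery that switches it on. They were taken as a list of names, chosen with earlier results of these data known, and cover 3 classes. The first holds 8 genes of the early mevalonate steps, the second 12 genes of the late sterol steps and the third 7 genes of control and sterol transport. All 27 were found among the 46603 gene identifiers of the count tables, and all 27 were among the 15828 genes abundant enough to be tested.

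RNA had been sequenced from visceral fat of untreated C57/Bl6 mice aged 18 months. Wild-type mice (WT) gave 3 libraries, and 3 came from knockouts of nuclear myosin 1 (NM1 KO), an isoform of the Myo1c gene product that acts in transcription. The labels number the replicates without saying that each was a separate animal. The p-values thus weigh the group difference only against the spread between these libraries within a group, and that spread may be technical. The altered part of Myo1c, and whether every tissue carried it, are unknown (not given in the sources used here).

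In the early steps, acetyl units are joined and reduced to mevalonate, which is phosphorylated and cut down to isoprenoid building blocks. The late steps join these blocks to squalene, close the rings and trim the sterol to cholesterol. The transcription factor SREBP2, encoded by Srebf2, drives nearly all of these enzymes. When sterols are plentiful, SREBP2 is held in the endoplasmic reticulum by its escort SCAP and the INSIG proteins. When sterols run short, SCAP carries it to the Golgi, where the proteases encoded by Mbtps1 and Mbtps2 release its active part.

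The libraries held between 24677758 and 33537818 counts. Levels are counts per 1000000 (CPM) after scaling with TMM size factors. Log2 fold changes are NM1 KO over WT with their SE, and called genes are those with an adjusted p under 0.05 in the quasi-likelihood test of edgeR over all tested genes. Myo1c itself lay at 801, 759 and 801 CPM in WT replicates 1 to 3 and at 452, 697 and 551 CPM in NM1 KO replicates 1 to 3 (log2 -0.47 ± 0.17, adjusted p = 0.151). These counts cover all isoforms of the gene and do not check the loss of NM1. The fat cell markers Adipoq and the other 9 of their list were present in every library, Adipoq at 1820 CPM or more.

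The tissue is a mixture, and in bulk RNA fewer cells of a type and less RNA per cell cannot be told apart. Over all tested genes, 2.79% were called higher and 1.47% lower. Of 12 macrophage markers, 8 were called higher and 0 lower, and their summed level was 1880 to 2630 CPM in WT, against 4690 to 7220 in NM1 KO. Of 10 fat cell markers, edgeR called 0, although 1 higher and 4 lower were past 0.05 before adjustment, 5 were called by DESeq2 and 2 by limma-voom, and their summed level was 31400 to 36300 CPM in WT, against 24200 to 31100 in NM1 KO. Of 8 endothelial markers 5 were called lower, of 6 pericyte and smooth muscle markers 1 was called lower (Myh11), of 5 mesothelial markers 1 was called lower (Wt1), and of 6 markers of stromal progenitors 2 were called higher (Pdgfra and Lum). None of 7 T cell, 5 B cell and 5 erythroid markers was called by edgeR, with 2, 0 and 5 at an unadjusted p under 0.05 and 1, 0 and 3 called by DESeq2. B cell markers summed to 64.2, 103 and 54.9 CPM in WT replicates 1 to 3, against 268, 44.9 and 26.4 in NM1 KO replicates 1 to 3. T cell markers summed to 11.1, 16.5 and 16.1 CPM in WT, against 39.6, 10.1 and 36 in NM1 KO. All 5 erythroid markers lay lower in NM1 KO without overlap. The part of these cell types in the sterol gene values was not tested.

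Markers of steroid-making cells of nearby glands, which make much cholesterol, were also read. Star spanned 10.5 to 17.5 CPM across the WT libraries and 7.24 to 18.9 across the NM1 KO libraries. For Cyp11a1 the spans were 1.44 to 3.07 and 1.71 to 4.22. Neither gene was called, and the part of such cells in the sterol gene values was not tested. Hsd3b1 and Cyp11b1 had 0 counts in every library, Cyp17a1 lay at 0.200 CPM or lower, and the 3 tested markers of that list summed to 12.0 to 21.1 CPM. Of these 3, Insl3 was called lower, at 2.12 ± 0.827 CPM in WT, against 0.503 ± 0.0389 in NM1 KO. Of the liver markers only Alb was abundant enough to test, and it was not called (6.25 ± 2.55 and 3.99 ± 0.843 CPM, adjusted p = 0.282).

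Sterol genes lay mostly higher in NM1 KO, but few passed the test. In all, 3 of the 27 genes rose (11.1%), where 4.25% of all tested genes were called in either direction and 2.79% were called higher. They were Msmo1 and Hsd17b7, both enzymes of late sterol trimming, and Stard4, a sterol carrier. No member was called lower, beside 1.47% of all tested genes. The median log2 fold change of the members was 0.16, beside -0.002 over all tested genes, and 20 members had a positive value and 7 a negative one.

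Without the adjustment, 9 members had a p under 0.05 on the higher side and 2 on the lower side, where the shares of all tested genes were 13% and 10.8%. The groups stood apart, with no shared CPM range, for 10 members that lay higher and 5 that lay lower in NM1 KO, beside 14.9% and 15% of all tested genes. DESeq2 called 6 members, all higher, beside 7.66% of its tested genes called higher, and limma-voom with sample quality weights called the same 6 beside 6.1%. These were the 3 above with Hmgcs1, Cyp51 and Insig1.

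The calls were lost when any library other than NM1 KO replicate 2 was left out. None of the 3 genes was called when WT replicate 1, WT replicate 2, WT replicate 3, NM1 KO replicate 1 or NM1 KO replicate 3 was left out, and all 3 were called without NM1 KO replicate 2. Over all tested genes, the 5 removals that ended the calls left between 1 and 244 genes called, against 673 with all libraries. As a share of all tested genes, those called higher made up 0.195%, 0.0247% and 0.00608% without WT replicates 1, 2 and 3, and 1.08%, 7.26% and 0.0243% without NM1 KO replicates 1, 2 and 3.

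**Figure D1:**
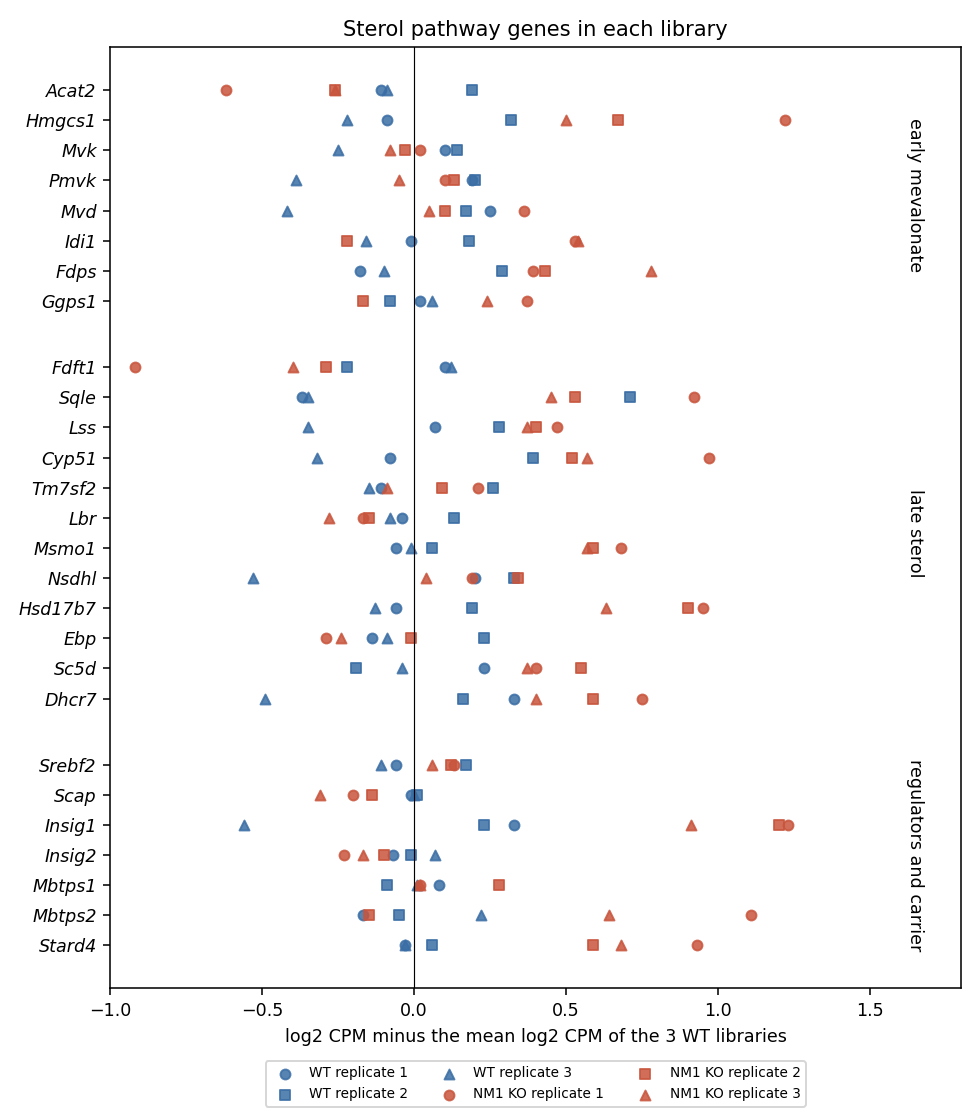
Level of each gene in each library, as log2 CPM minus the mean log2 CPM of the 3 WT libraries (x axis), for the 27 genes in their 3 classes (y axis). WT libraries are blue and NM1 KO libraries red, with a circle, square or triangle for replicates 1, 2 and 3. For Msmo1, Hsd17b7, Stard4 and Insig1 the 3 red points lie to the right of all blue points, while for Scap and Insig2 they lie to the left.

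The medians of the classes were set apart in the counts as deposited, but not once GC content and transcript length were corrected for. The late sterol steps had a median log2 fold change of 0.41, with 2 of 12 called, both higher, beside 2.79% of all tested genes. The early mevalonate steps had a median of 0.15 with 0 of 8 called by edgeR. Before adjustment 1 of the 8 was past 0.05 on the higher and 1 on the lower side, beside 13% and 10.8% of all tested genes. Both DESeq2 and limma-voom called 1 higher, beside 7.66% and 6.1% of their tested genes. The regulators and carrier had a median of 0.11, with 1 of 7 called, higher, beside the same 2.79%. With each library corrected for GC content and length, the medians were 0.24 for the early, 0.25 for the late and 0.22 for the regulator class, with 0 late genes called. The early median was 0.06 without NM1 KO replicate 1, 0.07 without WT replicate 3 and 0.24 without NM1 KO replicate 2. The differences between the classes were not tested.

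Library by library, without that correction, the late sterol genes had a higher median in every NM1 KO library than in any WT library. This median against the WT mean lay at -0.05, 0.21 and -0.14 in WT replicates 1 to 3 and at 0.43, 0.46 and 0.37 in NM1 KO replicates 1 to 3, on the log2 scale. The early mevalonate median lay at 0.00, 0.18 and -0.19 in WT and at 0.36, 0.03 and 0.14 in NM1 KO. The early steps thus overlapped between the groups, with WT replicate 2 above NM1 KO replicates 2 and 3, while the late steps did not. The median of the regulators spread least, at -0.03, 0.01 and 0.00 in WT, against 0.13, 0.12 and 0.06 in NM1 KO, also without overlap. Within WT, replicate 2 held the highest value of 18 of the 27 genes and replicate 3 the lowest of 14. Within NM1 KO, replicate 1 held the highest value of 15 genes and replicate 3 the lowest of 16.

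**Figure D2:**
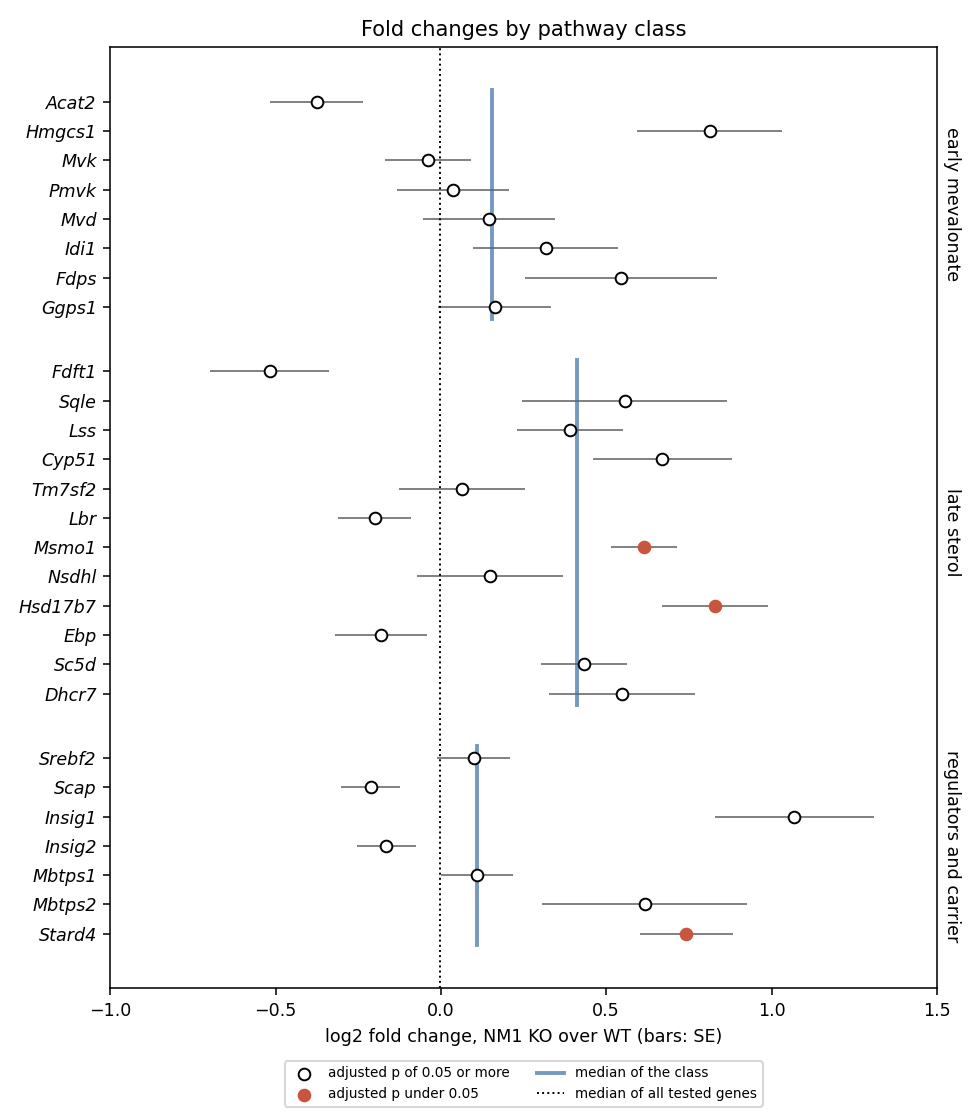
Log2 fold change of each gene, NM1 KO over WT (x axis), with bars of 1 SE, by class (y axis). Filled points mark the 3 genes with an adjusted p under 0.05, blue lines the class medians (0.15, 0.41 and 0.11) and the dotted line the median of all tested genes (-0.002).

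The stretch of DNA before each start site was read, because genes under SREBP2 carry short boxes there that SREBP2 and its partner factors bind. RefSeq promoters on GRCm38.p6 were found for 23 of the 27 genes, 29 promoters in all, and Fdps, Fdft1, Sqle and Stard4 had none in the table used. Of the 23 genes, only Hmgcs1 matched the sterol regulatory element TCACNCCAC exactly. The 250 bases before the RefSeq start are shown for 4 genes, Hmgcs1 for this element, Insig1 for its change, and the called Msmo1 and Hsd17b7. They lie at chr13:119690101-119690350 on the plus strand, chr5:28071162-28071411 on the plus strand, chr8:64733579-64733828 on the minus strand and chr1:169969206-169969455 on the minus strand. Capitals mark the sterol regulatory element TCACNCCAC, the E-box CACGTG and the NF-Y box CCAAT, each read on both strands, so that ATTGG is CCAAT on the other strand.
Hmgcs1: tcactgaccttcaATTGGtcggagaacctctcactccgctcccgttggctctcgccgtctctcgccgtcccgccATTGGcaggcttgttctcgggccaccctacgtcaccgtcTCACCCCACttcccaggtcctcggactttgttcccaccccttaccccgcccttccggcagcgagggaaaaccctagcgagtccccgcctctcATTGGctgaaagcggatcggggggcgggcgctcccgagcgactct
Insig1: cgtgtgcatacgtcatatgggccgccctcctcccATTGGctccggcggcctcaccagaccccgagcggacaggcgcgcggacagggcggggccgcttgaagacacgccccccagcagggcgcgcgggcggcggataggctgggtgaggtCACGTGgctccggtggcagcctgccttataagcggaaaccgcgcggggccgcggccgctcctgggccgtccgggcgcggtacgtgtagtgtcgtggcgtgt
Msmo1: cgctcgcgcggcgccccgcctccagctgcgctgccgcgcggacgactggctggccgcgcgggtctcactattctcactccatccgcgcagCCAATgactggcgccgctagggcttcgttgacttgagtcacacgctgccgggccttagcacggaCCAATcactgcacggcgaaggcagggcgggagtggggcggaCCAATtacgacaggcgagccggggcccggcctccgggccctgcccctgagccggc
Hsd17b7: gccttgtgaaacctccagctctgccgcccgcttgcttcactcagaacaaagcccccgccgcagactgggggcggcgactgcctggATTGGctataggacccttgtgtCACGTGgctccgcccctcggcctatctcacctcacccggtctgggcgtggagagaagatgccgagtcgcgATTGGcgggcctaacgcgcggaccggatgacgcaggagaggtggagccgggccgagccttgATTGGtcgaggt

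The NF-Y box CCAAT stood in the promoters of 6 of 7 early mevalonate genes and 10 of 10 late sterol genes with a sequence, and in 3 of 6 regulators. Counted by promoter, 65.5% of the members' promoters held it, beside 33.8% of all 32851 promoters of the same length. Msmo1 and Hsd17b7 carried it 3 times each, as the printed sequences show, and Hmgcs1 did as well. Repeats were not particular to genes that lay clearly higher, since Mvk (log2 -0.04), Ggps1 (0.16) and Insig2 (-0.16) held several too. Scap, Mbtps1, Mbtps2 and Acat2 had no match in this window. The GC box GGGCGG, bound by Sp1, stood in 75.9% of members' promoters and 32.7% of all. The E-box CACGTG, which SREBP proteins can also bind, stood in 5 genes, namely Hsd17b7, Dhcr7, Sc5d, Insig1 and Scap, or 17.2% of members' promoters beside 6.02% of all. TCACNCCAC was found in 1 member, as TCACCCCAC from 137 to 129 bases before the Hmgcs1 start, and in 1.05% of all promoters. In all 8 patterns were searched, first over the table's whole 300-base windows and then over 250 bases, and these 4 were kept after their matches had been seen. The others were the sterol regulatory element at full length, found in 0 members, a degenerate sterol regulatory element found in Pmvk and Srebf2 (6.90% of members' promoters, 1.73% of all), CACCCCAC in Acat2 and Hmgcs1 (6.90% and 2.58%) and TCACCCC in Hmgcs1, Insig2 and Srebf2 (10.3% and 4.31%). These overlap TCACNCCAC in part. The shares are descriptions without a test, and a match is not a measured site.

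The early steps begin with Acat2, the thiolase that joins acetyl units in the cytosol, and Hmgcs1, the synthase that makes HMG-CoA. Hmgcs1 (ENSMUSG00000093930) lay at 140, 185 and 127 CPM in WT replicates 1 to 3 and at 347, 236 and 211 in NM1 KO replicates 1 to 3. All 3 NM1 KO libraries were above all 3 WT libraries, and NM1 KO replicate 1 stood apart at the top. edgeR gave a log2 fold change of 0.81 ± 0.22 and an adjusted p of 0.089, while DESeq2 gave 0.0123 and limma-voom 0.0486. Acat2 went the other way, at 52.2, 64.2 and 53.0 CPM in WT, against 36.6, 47.1 and 47.0 in NM1 KO. Its groups did not overlap either, and its log2 fold change of -0.38 ± 0.14 was not called (adjusted p = 0.173). The first 2 enzymes of the route thus had values of opposite sign. Per length of exon, Hmgcs1 was 1.48, 1.60 and 1.33 times Acat2 in WT replicates 1 to 3 and 5.25, 2.78 and 2.49 times in NM1 KO.

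The kinases and the decarboxylase that follow were close to level in the counts as deposited. Mvk, mevalonate kinase, lay at 38.1 ± 5.43 CPM in WT, against 37.1 ± 1.34 in NM1 KO (SD, n = 3). Pmvk, phosphomevalonate kinase, lay at 35.4 ± 7.68 and 36.3 ± 2.34 CPM. Mvd, mevalonate diphosphate decarboxylase, lay at 15.2 ± 3.56 and 16.9 ± 2.00 CPM. Their log2 fold changes, -0.04 ± 0.13, 0.04 ± 0.17 and 0.14 ± 0.20, were no larger than their SE, and each turned sign in at least 1 of the 16 other analyses tried. With GC content and length corrected for, the values were 0.20, 0.28 and 0.42, and none was called (edgeR adjusted p = 0.433, 0.344 and 0.291). In all 3 genes WT replicate 3 was the lowest library.

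The prenyl steps varied more between libraries. Idi1, the isomerase of the isoprenoid unit, lay at 31.9, 36.4 and 28.7 CPM in WT, against 46.7, 27.7 and 46.7 in NM1 KO. NM1 KO replicates 1 and 3 were above every WT library and replicate 2 below them, so the groups overlapped (adjusted p = 0.416). Ggps1, which makes the longer prenyl chain used on proteins, had the same order, with 22.0 and 20.1 CPM in NM1 KO replicates 1 and 3, 15.1 in replicate 2 and 16.1 to 17.8 in WT. Fdps, farnesyl diphosphate synthase, had only 1.55 to 2.17 CPM in WT, against 2.35 to 3.10 in NM1 KO (log2 0.55 ± 0.29, adjusted p = 0.298). Fdps shares 26.7% of its exon bases with another annotated gene on the same strand, so reads there may have been left uncounted and its level is uncertain.

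**Figure D3:**
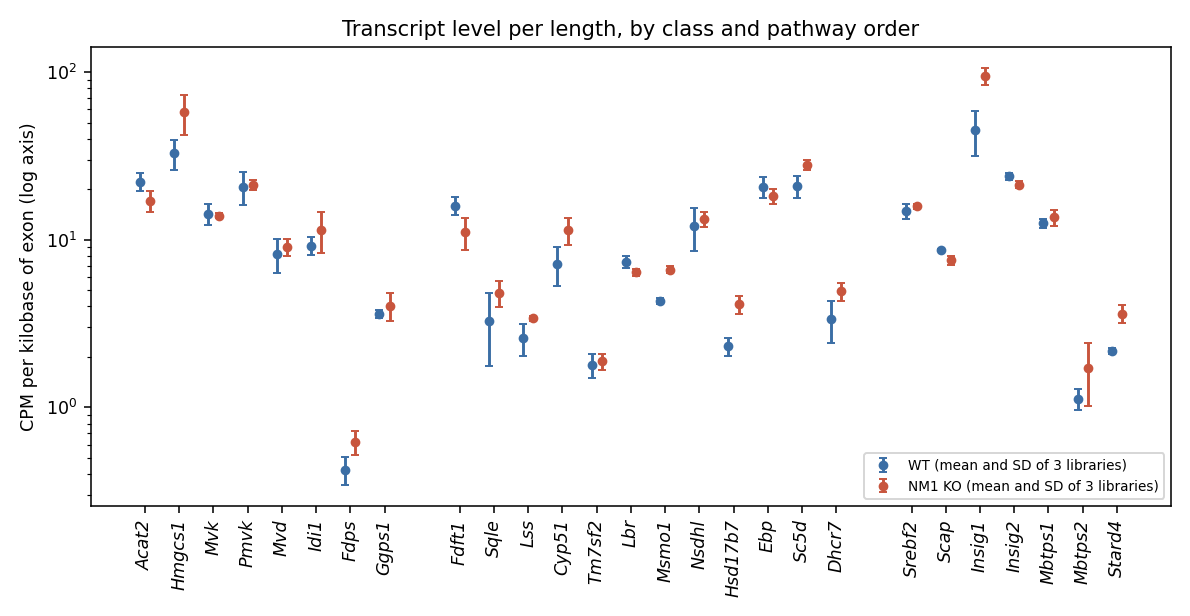
Mean CPM per kilobase of exon with SD (y axis, log scale) in the 3 WT (blue) and 3 NM1 KO (red) libraries, for the 27 genes in pathway order within the early, late and regulator classes (x axis). Insig1 and Hmgcs1 are the highest and Fdps the lowest in both groups.

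Per length of exon, the genes spanned a wide range in WT. Insig1 was highest at 45.1 ± 13.6 CPM per kilobase, followed by Hmgcs1 at 32.8 ± 6.65 and Insig2 at 23.9 ± 1.14, and Fdps was lowest at 0.425 ± 0.0797. Of the 26 pairs of neighbours in this order, 21 overlapped in their WT ranges and so did not differ beyond their spread. Hmgcs1 stood clear of Insig2, Cyp51 of Msmo1, Msmo1 of Ggps1, Tm7sf2 of Mbtps2 and Mbtps2 of Fdps.

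The late route opens with Fdft1, which makes squalene, then Sqle, which oxidises it, and Lss, which closes the rings. Fdft1 lay at 71.7, 57.7 and 72.9 CPM in WT, against 35.5, 54.8 and 50.9 in NM1 KO. It was lower in all 3 NM1 KO libraries, though NM1 KO replicate 2 was close to WT replicate 2, and its log2 fold change of -0.52 ± 0.18 was not called (adjusted p = 0.15). Fdft1 shares 18.3% of its exon bases with Ctsb, a lysosomal protease gene on the opposite strand that lay at 2600 to 2920 CPM in WT, against 3980 to 4890 in NM1 KO. Since the strand setting of the counting is not given, the Fdft1 level is uncertain, and the part of Ctsb in it was not tested.

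Sqle was the most variable enzyme in WT, at 13.2, 27.9 and 13.4 CPM, with 32.3, 24.6 and 23.4 in NM1 KO. WT replicate 2 lay within the NM1 KO range, and the log2 fold change was 0.56 ± 0.31 (adjusted p = 0.328). Without WT replicate 2 it was 1.01 with an edgeR adjusted p of 0.0763. Lss lay at 28.8, 33.2 and 21.6 CPM in WT, against 38.0, 36.2 and 35.4 in NM1 KO, without overlap (log2 0.39 ± 0.16, adjusted p = 0.208). Cyp51, the first demethylase of lanosterol, lay at 29.3, 40.6 and 24.8 CPM in WT, against 60.6, 44.2 and 45.8 in NM1 KO. All NM1 KO libraries of Cyp51 were above all WT libraries, with a log2 fold change of 0.67 ± 0.21 and an adjusted p of 0.118 by edgeR, 0.0435 by DESeq2 and 0.0422 by limma-voom. In Sqle, Lss and Cyp51, WT replicate 2 was the WT library nearest to NM1 KO.

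Of the 3 enzymes that work together in the later demethylation of the sterol, 2 rose, Msmo1 and Hsd17b7, though neither was called once GC content and length were corrected for (adjusted p = 0.0541 and 0.0671 by edgeR). Msmo1 (ENSMUSG00000031604, chromosome 8, 64718139 to 64733792 on GRCm38), the methylsterol monooxygenase, lay at 25.6, 27.8 and 26.5 CPM in WT, against 42.8, 40.1 and 39.5 in NM1 KO. The libraries within each group lay close together with a wide gap between groups, and the log2 fold change was 0.61 ± 0.10 (fold 1.53, edgeR adjusted p = 0.0277). Hsd17b7 (ENSMUSG00000026675, chromosome 1, 169949535 to 169969241), the reductase that ends the same cycle, lay at 11.2, 13.4 and 10.8 CPM in WT, against 22.8, 22.0 and 18.2 in NM1 KO. Again no NM1 KO library reached down to WT, with a log2 fold change of 0.83 ± 0.16 (fold 1.78, edgeR adjusted p = 0.0354). Nsdhl, the dehydrogenase that works between them, lay at 37.9, 41.5 and 22.9 CPM in WT, against 37.7, 41.9 and 34.0 in NM1 KO. WT replicate 3 was low and the other 5 libraries lay together (adjusted p = 0.721). Erg28, the scaffold of this complex, named after its value was seen, lay at 18.0 ± 1.54 and 20.3 ± 2.35 CPM (adjusted p = 0.499).

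**Figure D4:**
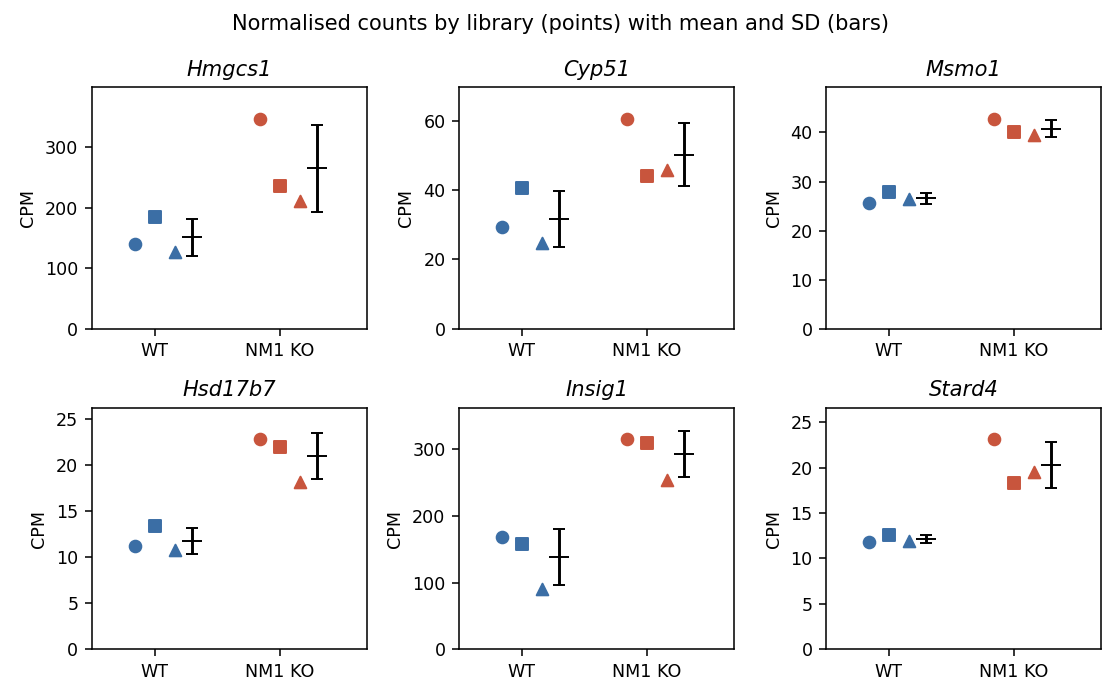
CPM (y axis, from 0) of Hmgcs1, Cyp51, Msmo1, Hsd17b7, Insig1 and Stard4 in WT (blue) and NM1 KO (red) libraries, with a circle, square or triangle for replicates 1, 2 and 3 and the mean with SD in black. In each panel the lowest NM1 KO point lies above the highest WT point, and the distance is narrowest for Cyp51 (40.6 against 44.2 CPM).

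The sterol reductases and the last enzymes did not move as 1 group. Tm7sf2 and Lbr encode enzymes with the same sterol reductase activity, and Lbr is also the lamin B receptor of the nuclear envelope. Tm7sf2 lay at 7.91 ± 1.29 CPM in WT, against 8.28 ± 0.877 in NM1 KO. Lbr lay at 34.0, 38.3 and 33.1 CPM in WT, against 31.1, 31.7 and 28.9 in NM1 KO, lower without overlap but not called (log2 -0.20 ± 0.11, adjusted p = 0.308). Ebp, the sterol isomerase, lay at 47.8 ± 6.87 and 42.1 ± 4.46 CPM with overlapping ranges. Sc5d, the desaturase, lay at 118, 87.9 and 97.9 CPM in WT, against 133, 148 and 130 in NM1 KO, and Dhcr7, the final reductase of its branch, at 24.0, 21.3 and 13.5 against 32.1, 28.7 and 25.2. Both lay higher in all NM1 KO libraries, with adjusted p values of 0.11 and 0.193, so neither was called.

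Among the regulators, the SREBP2 gene itself was nearly level. Srebf2 lay at 102, 119 and 97.9 CPM in WT, against 116, 115 and 110 in NM1 KO (log2 0.10 ± 0.11, adjusted p = 0.619). WT replicate 2 was above every NM1 KO library, so the groups overlapped. Its escort Scap lay at 64.3, 65.4 and 65.0 CPM in WT, against 56.7, 58.9 and 52.4 in NM1 KO, lower in all 3 libraries but not called (log2 -0.21 ± 0.09, adjusted p = 0.222). These are transcript levels, and SREBP2 is controlled by cleavage of its protein, which was not measured.

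The INSIG proteins hold SCAP and SREBP2 back, and Insig1 is itself a target of SREBP2. Insig1 (ENSMUSG00000045294, chromosome 5, 28071363 to 28078662) had the highest fold change of the 27 genes, at 169, 158 and 91.2 CPM in WT, against 315, 309 and 254 in NM1 KO. Its NM1 KO libraries lay far above WT, but WT replicate 3 was well below the other WT libraries. The log2 fold change of 1.07 ± 0.24 had an edgeR adjusted p of 0.0555, just above the threshold, with 0.00065 by DESeq2 and 0.0382 by limma-voom. With 1 library left out, the edgeR adjusted p of Insig1 lay between 0.0646 and 0.12. Insig2, which is not driven by SREBP2 in the same way, lay at 79.2, 82.5 and 87.1 CPM in WT, against 70.7, 77.4 and 73.8 in NM1 KO (log2 -0.16 ± 0.09, adjusted p = 0.332).

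Ratios between genes that act together or against each other were taken per length of exon within each library. Insig1 was 2.40, 2.15 and 1.18 times Insig2 in WT replicates 1 to 3 and 5.00, 4.48 and 3.86 times in NM1 KO. It was 6.33, 5.81 and 3.37 times Scap in WT and 13.4, 12.6 and 11.6 times in NM1 KO. Lbr over Tm7sf2 was 4.14 ± 0.325 in WT and 3.43 ± 0.243 in NM1 KO, and Mbtps1 over Mbtps2 was 11.4 ± 1.90 and 9.27 ± 5.24 (SD, n = 3). The ratios of Insig1, that of Lbr to Tm7sf2 and that of Hmgcs1 to Acat2 did not overlap between groups. In all 5 ratios were computed, with pairs chosen once the levels were known. The exact two-sided permutation p was 0.1 for 4 of them, the smallest that 3 against 3 allows (0.125 after Benjamini-Hochberg adjustment over the 5), and 0.5 for Mbtps1 over Mbtps2, so none could pass 0.05.

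The proteases that release SREBP2 showed no call. Mbtps1, which makes the first cut, lay at 133 ± 8.15 CPM in WT, against 143 ± 15.3 in NM1 KO (adjusted p = 0.603). Mbtps2, which makes the second cut within the membrane, lay at 9.98, 10.9 and 13.1 CPM in WT, against 24.4, 10.1 and 17.6 in NM1 KO. NM1 KO replicates 1 and 3 were high and replicate 2 was at the WT level (log2 0.62 ± 0.31, adjusted p = 0.276). Without NM1 KO replicate 2, Mbtps2 had a log2 fold change of 0.89 with an edgeR adjusted p of 0.0437, and without NM1 KO replicate 1 it was 0.31 with 0.642. Idi1, Ggps1 and Mbtps2 thus shared NM1 KO replicates 1 and 3 above every WT library and a replicate 2 within or below the WT range. Their GC contents were low, at 41.9%, 40.1% and 40.0%. With GC content and length corrected for, their log2 fold changes of 0.32, 0.16 and 0.62 were 0.18, 0.03 and 0.25, and none was called. The part of GC content in this order of libraries was not tested.

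Stard4 rose. It encodes a soluble carrier that moves cholesterol between membranes and is switched on with the synthesis enzymes. Stard4 (ENSMUSG00000024378, chromosome 18, 33199355 to 33213862) lay at 11.8, 12.6 and 11.9 CPM in WT, against 23.1, 18.3 and 19.5 in NM1 KO. The WT libraries were within 1 CPM of each other and every NM1 KO library was above them, with a log2 fold change of 0.74 ± 0.14 (fold 1.67, edgeR adjusted p = 0.0363).

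The fold changes were also read against base composition, because NM1 KO replicates 1 and 3 favoured transcripts low in GC. Across 13933 protein-coding genes, the log2 fold change had a Spearman's rho of -0.374 with GC content, and a library's deviation followed GC content with a rho of 0.145 to 0.349 in WT and of -0.430, 0.239 and -0.457 in NM1 KO replicates 1 to 3. Across the 27 sterol genes, which share these libraries, rho was -0.527, and -0.164 once the trend of every library on these properties was removed. In that corrected fit Stard4 alone of the members stayed called (log2 0.59, edgeR adjusted p = 0.046), beside 2.87% of all genes called higher. Msmo1 (log2 0.45, adjusted p = 0.0541), Hsd17b7 (log2 0.70, adjusted p = 0.0671) and Insig1 (log2 1.06, adjusted p = 0.0507) lay just above the threshold and were not called. The early and late medians, 0.15 and 0.41 without the correction, were 0.24 and 0.25 with it, so the gap between these classes was not kept.

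**Figure D5:**
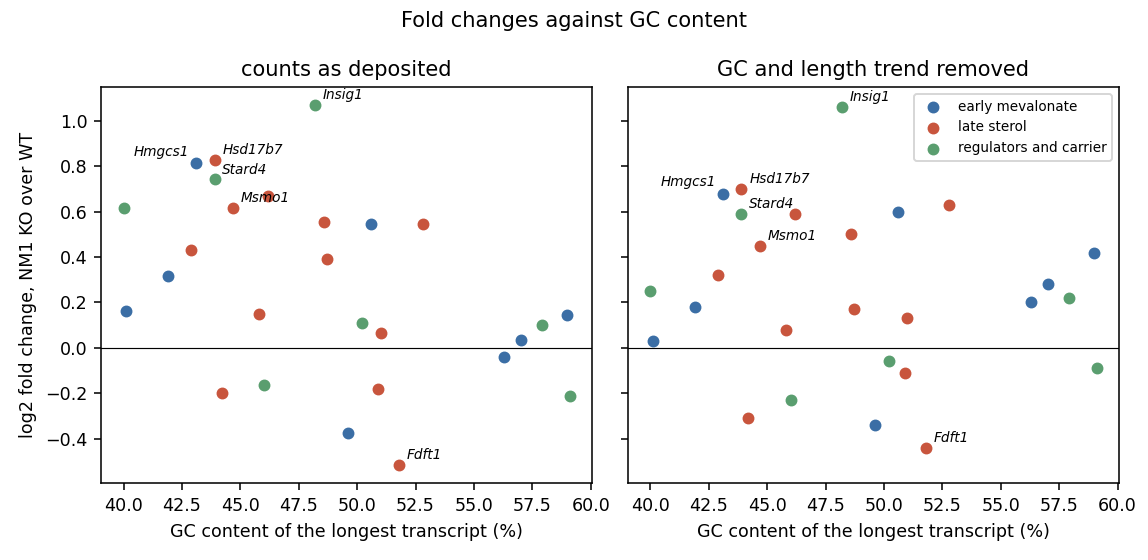
Log2 fold change, NM1 KO over WT (y axis), against the GC content of the longest transcript in percent (x axis) for the 27 genes, coloured by class, from the counts as deposited (left) and after removal of the GC and length trend of every library (right). The downward tilt of the left panel (rho -0.527) is weaker on the right (rho -0.164), and Insig1 keeps its value (1.07 and 1.06).

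Of the 27 genes, 11 share exon bases with another annotated gene, 8 on the opposite strand and 4 on the same strand, with Lbr in both counts. Where reads there were counted is not known. The strand setting is not given, and on the same strand no such setting would separate the reads. Hmgcs1 shares 12.1% of its exon bases with an antisense gene that could not be matched to a count. Mbtps2 shares 28.4% with Yy2, which had 0 counts in every library. Cyp51 shares 3.76% with Akap9 on the opposite strand, which lay at 31.3 to 33.4 CPM in WT and at 80.1, 18.4 and 34.7 in NM1 KO replicates 1 to 3. Ggps1 shares 5.44% with Arid4b on the opposite strand, at 24.2 to 28.3 CPM in WT, against 49.7, 10.5 and 31.1 in NM1 KO, the same order of libraries as Ggps1 itself. The part of these neighbours in the levels of the sterol genes was not tested. Msmo1, Hsd17b7 and Stard4 share no exon bases with another gene of the annotation.

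Further genes of the pathway came from 3 lists, of which the list of other sterol enzymes and SREBP2 targets is given in part, without counts. In it, Por, the reductase that feeds electrons to Cyp51 and Sqle, lay at 576, 536 and 629 CPM in WT, against 293, 426 and 325 in NM1 KO. All NM1 KO libraries of Por were below all WT libraries, but it was not called (log2 -0.74 ± 0.16, edgeR adjusted p = 0.0544). Aacs, which activates acetoacetate in the cytosol, lay at 239 ± 45.5 and 130 ± 41.3 CPM and was not called (log2 -0.88 ± 0.26, edgeR adjusted p = 0.101). Por and Aacs both lay lower, but they do not stand for their list. It held values of both signs, with a median log2 fold change of -0.01. Of 13 genes of the prenyl and dolichol branch 0 were called by edgeR, 1 was higher at an unadjusted p under 0.05, and DESeq2 and limma-voom called 1 each. That gene was Pggt1b, a subunit of the enzyme that puts prenyl groups on proteins, at 5.21, 6.58 and 6.29 CPM in WT, against 21.4, 8.30 and 14.9 in NM1 KO (adjusted p = 0.077).

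Among 16 genes of sterol-regulated protein degradation and SCAP anchoring, 1 rose (6.25%), a share near the 4.25% called over all tested genes. March6, a ubiquitin ligase that marks the Sqle protein for degradation, lay at 83.7, 78.8 and 96.9 CPM in WT, against 139, 125 and 130 in NM1 KO (log2 0.61 ± 0.11, edgeR adjusted p = 0.0342). Syvn1 (log2 -0.43 ± 0.12, adjusted p = 0.0921) and Mylip (log2 -0.52 ± 0.19, adjusted p = 0.152), both also ubiquitin ligases, had negative values and were not called. March6 was called in 1 of the 6 fits that left out a library, and not in the fit corrected for GC content and length.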

How the data were processed

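RNA-seq libraries of visceral adipose tissue, 3 WT and 3 NM1 KO, were analysed from the raw counts per gene deposited by the authors, 1 table a library. Per the submitters' processing notes, reads were handled with HTSeq, FastQC, Trimmomatic 0.36, SAMtools 0.1.19 and HISAT2 2.0.4. Settings, annotation and strand mode were unknown (not given in the sources used here). Totals were 24677758 to 33537818 counts, and the precision of each value also depends on the spread between libraries.

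Counts were tested with edgeR 4.0.16 (filterByExpr, TMM, robust quasi-likelihood, genotype as the only term, Benjamini-Hochberg over 15828 genes, threshold 0.05), after a check on simulated data. CPM used TMM-scaled totals. Levels per kilobase used the union of GENCODE M21 exons, matched for 46005 of 46603 identifiers. Log2 values shown per library had a prior count of 2. Alternatives were DESeq2 1.42.0, limma-voom 3.58.1, other size factors and filters, a replicate block, an offset for GC content and length, and leaving out each library.

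The members and lists were chosen with earlier results of these data known. All 27 members are named, with full statistics for called members and regulators, and other lists by counts and up to 4 genes of smallest p. Some genes that this rule names are not reported here. Promoters came from RefSeq (GRCm38.p6).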

Additional observations from a re-analysis of the deposited data

How the results depend on the processing

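The genes called over all, 673, numbered 336 with the replicate block, 2193 with DESeq2 and 1648 with limma-voom, and 1 to 1654 with 1 library left out. Sterol genes called, 3, numbered 1 with the replicate block (Insig1, adjusted p = 0.046), 6 with DESeq2 and with limma-voom, 1 with the offset for GC content and length (Stard4), 1 with that offset and the replicate block (Insig1, adjusted p = 0.0262), and 0 to 4 with 1 library left out. Late sterol genes called, 2, numbered 0 under the replicate block, the offset and both together, and 0 to 2 with 1 library left out. Early mevalonate genes called, 0, numbered 1 with DESeq2 and with limma-voom. Regulators called, 1, numbered 2 without a filter on low counts, with DESeq2 and with limma-voom, and 0 to 2 with 1 library left out. The median log2 fold change of the late sterol genes, 0.41, was 0.25 with the offset and 0.25 with offset and replicate block, that of the regulators, 0.11, was 0.22 and 0.23, and that of the early mevalonate genes, 0.15, was 0.24 and 0.25. With 1 library left out, the median of all members lay at 0.17 to 0.32, the highest without WT replicate 2 (0.32) and NM1 KO replicate 2 (0.31), that of the early mevalonate genes at 0.06 to 0.24 (lowest when NM1 KO replicate 1 was dropped, 0.07 when WT replicate 3 was, and highest when NM1 KO replicate 2 was), that of the late sterol genes at 0.28 to 0.44 and that of the regulators at 0.09 to 0.19. Each fit with 1 library left out had 5 libraries, and the cause of these moves was not tested. No member changed sign under any of the 16 settings except Mvk in 4, Pmvk and Mbtps1 in 2 each, and Mvd, Tm7sf2 and Nsdhl in 1 each. Whether the replicate numbers pair the samples is unknown. Deviations of same-numbered libraries correlated at -0.06, -0.0354 and 0.188, beside -0.0975 to 0.112 for the other pairs, and such weak values cannot settle it. Results with the replicate block are shown only here. Msmo1 had an edgeR adjusted p of 0.063, Hsd17b7 of 0.0596 and Stard4 of 0.0794 under that block. With 3 libraries a group, precision did not follow the level alone. Fdps, at 1.55 to 3.10 CPM, had an SE of 0.29 on the log2 scale, beside 0.31 for the higher Sqle and Mbtps2.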

Other observations

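Genes that store, free and export cholesterol held some of the larger changes. Of 16 such genes, 4 were called higher and 0 lower by edgeR, beside 2.79% of all tested genes called higher. Nceh1, a cholesteryl ester hydrolase, lay at 19.7, 20.2 and 18.7 CPM in WT and 97.6, 58.4 and 53.4 in NM1 KO (log2 1.84 ± 0.24, edgeR adjusted p = 0.0186). Soat1, which esterifies cholesterol for storage, lay at 41.1, 35.4 and 35.3 CPM in WT and 107, 78.0 and 75.7 in NM1 KO (log2 1.22 ± 0.16, edgeR adjusted p = 0.0186). Lipa, the lysosomal lipase, and Abca1, the cholesterol exporter, rose by 1.47 ± 0.26 and 1.29 ± 0.27 on the log2 scale. With 1 library left out, Nceh1 and Soat1 were called in 2 of 6 fits and Lipa and Abca1 in 1 of 6, and Abca1 was not called in the fit corrected for GC content and length. The median of the 16 genes was -0.18, so the list did not move 1 way. Macrophages express all 4 called genes, and macrophage markers summed to 1880 to 2630 CPM in WT and 4690 to 7220 in NM1 KO, whose part in these values was not tested.

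Genes of fatty acid synthesis under SREBP1 showed no call. Of 12, 0 were called by edgeR, 2 were lower at an unadjusted p under 0.05, and DESeq2 and limma-voom called 1 each. Srebf1, which encodes SREBP1, lay at 415, 561 and 562 CPM in WT and 280, 356 and 303 in NM1 KO (log2 -0.71 ± 0.16, edgeR adjusted p = 0.0579). All 3 NM1 KO libraries were below WT. The median of the list was -0.107, beside 0.16 for the 27 sterol genes. The difference between the lists was not tested.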
